A study of Mus musculus with 8 samples.

Results

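Non-cycling tumour cells were 897 of 38460 cells deposited for 8 allografts of N2N1G, a mouse small cell lung cancer line, and 2.66% of the 33749 cells that met the tumour part of the rule. A cell was taken as a tumour cell where at least 500 genes were detected, transcripts of the mitochondrial genome made up at most 10% of its UMIs (unique molecular identifiers, each marking 1 captured transcript), at least 3000 UMIs were counted, and eGFP and Mycl together held at least 0.2% of them. It was taken as non-cycling where 20 genes of DNA replication and mitosis (Mki67, Top2a, Cdk1, Ccnb1, Ccnb2, Cdc20, Birc5, Tpx2, Ube2c, Mcm2 to Mcm6, Pcna, Rrm1, Rrm2, Tyms, Gins2 and Uhrf1) together held under 0.06% of its UMIs. The members were thus chosen by measured values, the UMI counts of eGFP, Mycl and these 20 genes in each cell. The other 32852 tumour cells are the comparison within each library.

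Every group held N2N1G cells transplanted in the same number (1000000) and recovered at 3 weeks, sorted as healthy cells and made into 3' single-cell libraries. Brain (2 libraries) and subcutaneous (3 libraries) tumours came from direct injection and liver tumours (3 libraries) from the tail vein, so in comparisons with liver the site and the route of delivery cannot be told apart. All tumours derive from 1 cell line, and the strain, sex, age and immune status of the host mice are not given in the sources used here. The labels do not say whether replicates came from separate mice, so the p-values measure only the spread between these libraries, which may be in part technical.

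The libraries gave 42 and 49 non-cycling cells in brain, 143, 84 and 64 in liver, and 183, 189 and 143 in subcutaneous tumours. Their summed UMIs ran from 220555 in brain replicate 1 to 1352158 in subcutaneous replicate 2, so the brain levels carry the largest counting error. Median UMIs per non-cycling cell were 4661 to 8107 across libraries, against 8364.5 to 10761.5 in the other tumour cells, and 21.9% of non-cycling cells had 3000 to 5000 UMIs against 8.37% of the others. In the median non-cycling cell of a library, mitochondrial transcripts held 1.91 to 3.15% of the cell's UMIs and ribosomal protein transcripts 24.9 to 30.8%. The median for ribosomal protein transcripts was 19.6 to 25.1% in the other tumour cells. A library pair shared 20 to 56 cell barcodes over all deposited cells, and 1 barcode was shared among non-cycling cells.

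Neuroendocrine and epithelial markers that the rule did not use were present in all 8 libraries. Chga, a granule protein, stood at 269 to 489 CPM (UMIs of the gene per 1000000 UMIs of the sum) in the 8 non-cycling sums, and Epcam, an epithelial adhesion molecule, at 310 to 805. Syp, a vesicle protein, was the lowest of the 10 such markers, at 9.07 to 23.1 CPM. eGFP was found in 99.3% and Mycl in 98.4% of the members. eGFP UMIs were also found in 22.0 to 88.3% of the cells below the eGFP and Mycl limit, whose median depth was 3993.5 to 5907 UMIs, so a UMI of a tumour transcript does not by itself mark a tumour cell. Host markers stood high in 10 members, each with over 0.3% of its UMIs from 1 host list: 6 on the macrophage and microglia list (0.578 to 6.82% of the cell's UMIs), and 1 each on the endothelial (1.18%), glial (0.346%), hepatocyte (17.4%) and erythroid (70.1%) lists. They were 4 cells of brain replicate 1, 1 of brain replicate 2, 1 of liver replicate 1, 2 of liver replicate 2 and 2 of subcutaneous replicate 1, and results that rest on them are given with and without them.

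As background, a cell that leaves the division cycle switches off the genes for DNA copying and mitosis and may hold inhibitors of cyclin-dependent kinases. Low oxygen stabilises hypoxia-inducible factor, which switches on glucose uptake, glycolysis, Bnip3-driven mitophagy, Vegfa and prolyl hydroxylases. Shortage of amino acids and unfolded protein in the endoplasmic reticulum (ER) both raise translation of Atf4, which switches on Ddit3, Trib3, Chac1 and amino acid transporters, while Atf6 and Xbp1 switch on ER chaperones such as Hspa5. These programmes are known in poorly supplied regions of solid tumours.

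The members differed from the other tumour cells well beyond the 20 genes that chose them, and because the rule used that contrast these values are a description with no test. Of 7811 genes with at least 10 CPM, 245 (3.14%) were at least 1.5-fold lower in non-cycling cells in 8 of 8 libraries and 17 (0.218%) were at least 1.5-fold higher in 8 of 8. The lower group took in 26 of 27 measured genes of mitosis outside the rule, with a median log2 ratio of -2.81, and 23 of 29 genes of S phase, with a median of -1.26. Aurkb, a kinase of chromosome segregation, had a median ratio of -4.71 and Nusap1, a spindle protein, of -3.96. Ccna2, the cyclin of S and G2 phase, had a median of -4.09, and Ccne1, the cyclin that starts S phase, stood at 6.68 to 13.6 CPM in non-cycling cells against 55.0 to 81.2 CPM in the others. The median over all 7811 genes was -0.18. Tumour cells were also thinned to 3000 UMIs each and the limit on cycle genes applied again. The thinned members, here and below, were thus a different and larger set, with at most 1 cycle UMI each. Among them, 12 of the 29 S phase genes and 25 of the 27 mitosis genes were lower in every library.

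The 17 genes that stood higher in every library were Ak4, Aldoa, Aldoc, Bhlhe40, Camk2n1, Des, Nupr1, P4ha1, P4ha2, Pfkp, Pgk1, Selenbp1, Slc16a3, Smtnl2, Sox9, Stc2 and Tcp11l2. Of these, 8 belong to the hypoxia and glycolysis list: Aldoa, Aldoc, Pfkp and Pgk1 are glycolytic enzymes, P4ha1 and P4ha2 collagen prolyl hydroxylases, Bhlhe40 a transcription factor induced by low oxygen, and Slc16a3 the lactate exporter. Aldoa stood at 1392 and 1865 CPM in the non-cycling cells of brain, 1385, 1242 and 1118 CPM in liver and 3382, 3963 and 3286 CPM in subcutaneous tumours. Among the other tumour cells of the same libraries it stood at 278 and 264, at 496, 443 and 421, and at 978, 1288 and 1016 CPM. Every library showed the same direction, with a median log2 ratio of 1.66 (range 1.41 to 2.82). Sox9, a transcription factor of progenitor cells, stood at 27.9 to 50.1 CPM in non-cycling and 8.43 to 13.6 CPM in other tumour cells (median 1.26, range 1.07 to 1.85). Thinned to 3000 UMIs, 4 genes in all and 2 of the 31 measured hypoxia genes stood at least 1.5-fold higher in every library, and the hypoxia list's median was 0.67. The median of the hypoxia list over all UMIs was 0.90. The plot of single genes by library shows the 10 genes in each direction whose least marked library was farthest from 0, among genes with a mean of at least 20 CPM.

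**Figure D1:**
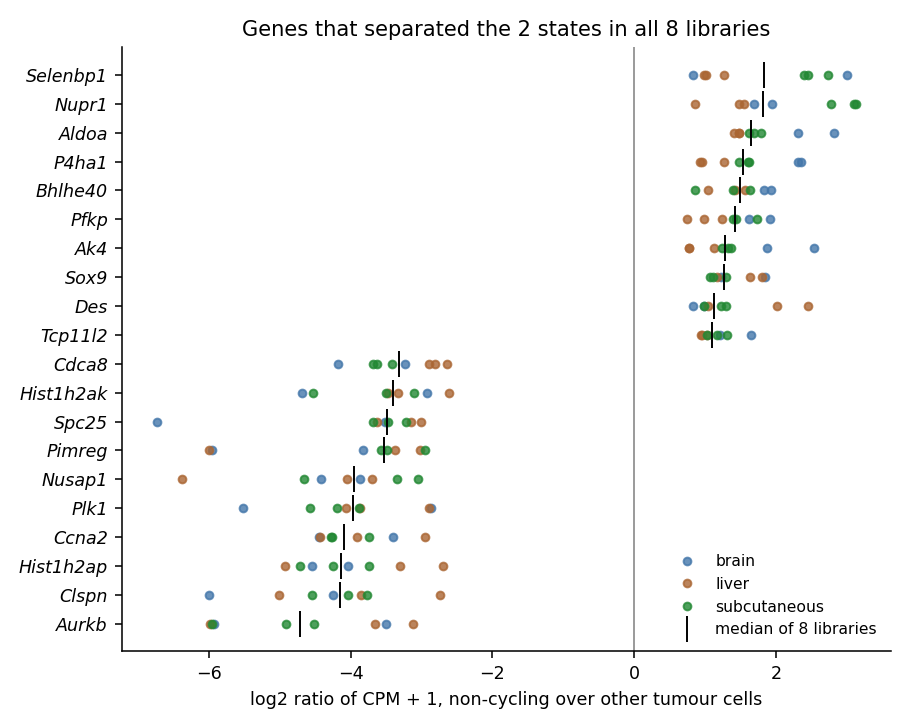
Log2 ratio of CPM + 1 (horizontal axis), non-cycling over other tumour cells of the same library, for 20 named genes (vertical axis) outside the 20 that chose the members; each point is 1 library, coloured by site, and the black stroke is the median of the 8 libraries. The 10 genes above 0 have medians of 1.10 to 1.84 and the 10 below 0 have medians of -4.71 to -3.32, and no gene has a library on the other side of 0.

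The cell cycle inhibitors did not mark the state. Of 33 measured genes of cell cycle exit, 0 were at least 1.5-fold higher in 8 of 8 libraries and 1, the inhibitor Cdkn2c (median -1.05), was lower; the list's median was 0.03. Cdkn1a, which codes for p21, had a median ratio of -0.19 and Cdkn1b, which codes for p27, of -0.03. The neuroendocrine list (19 genes measured) had a median of -0.35 with 0 genes past the 1.5-fold limit in every library either way. After thinning its median was -0.17, and the median over all 7811 genes, without thinning, was -0.18. Insm1 (-0.64) and Chga (-0.48) were both lower in the non-cycling cells of 8 of 8 libraries. The 79 ribosomal protein genes had a median of 0.37, the other direction from all genes.

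Members near the limit on cycle genes had hypoxia levels close to those of the cells just outside it. Pooled over libraries, the hypoxia and glycolysis list held 2.03% of the UMIs of the 38 members with 0 cycle UMIs, 2.54% in the 186 members above 0 and under 0.03%, 2.08% in the 369 members at 0.03 to 0.05%, 1.91% in the 304 members at 0.05 to 0.06%, 1.80% in the 375 cells just outside at 0.06 to 0.07%, and 1.09% in all other tumour cells. The amino acid stress list held 0.635, 0.786, 0.581, 0.477, 0.411 and 0.295% in the same order. These pools differ in their mix of sites: subcutaneous cells were 120 of the 186, 159 of the 304 and 188 of the 375. Within sites, the hypoxia list held 1.28% just inside, 1.37% just outside and 0.689% in all other tumour cells of brain, 1.24, 1.13 and 0.929% in liver, and 2.52, 2.52 and 1.41% in subcutaneous tumours. For mitosis genes outside the rule the pooled values just inside and just outside were 0.0915 and 0.0848%, against 0.338% in all other tumour cells. The members are thus a range of that measure, with like cells on either side of the limit.

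The share of tumour cells that were non-cycling was compared with every cell thinned to 3000 UMIs and the rule applied again, because the members were shallower than the rest. It was 2.56 and 1.55% in brain, 6.71, 4.05 and 2.51% in liver, and 6.25, 4.90 and 4.49% in subcutaneous tumours. Both brain libraries lay under all 3 subcutaneous libraries, while the liver libraries overlapped both other sites. Means were 2.05% ± 0.72 (SD, n = 2), 4.42% ± 2.12 (n = 3) and 5.21% ± 0.92 (n = 3), and the difference among the 3 sites did not pass an exact permutation test over 560 assignments (p = 0.168; 0.0476 over 210 assignments when liver replicate 1 was left out). Brain was 3.16 percentage points below subcutaneous, with an exact two-sided permutation p of 0.1, which is the smallest that 2 against 3 libraries can give. Without thinning the shares were 1.86 and 1.22%, 3.53, 2.06 and 1.41%, and 4.59, 3.10 and 3.03%. In dissociated and sorted tissue, fewer cells of a type in the tumour and fewer recovered cannot be told apart.

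**Figure D2:**
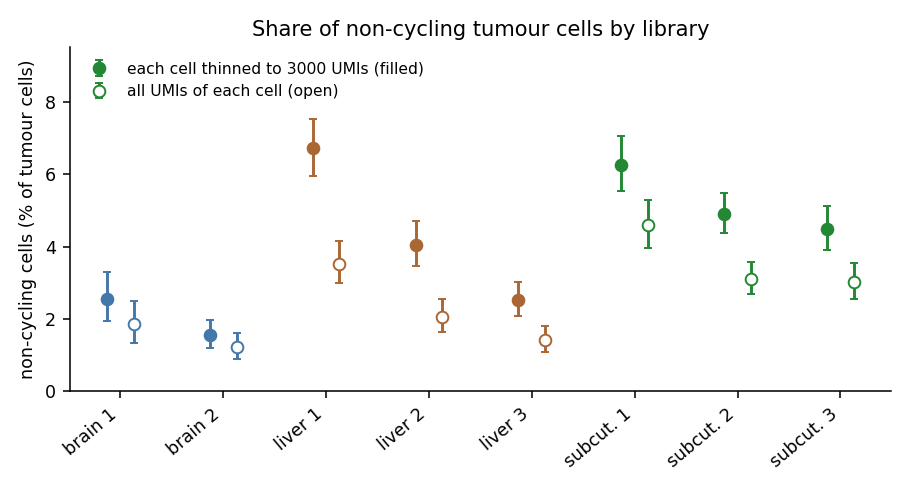
Percent of tumour cells that were non-cycling (vertical axis) in each library (horizontal axis), coloured by site, with each cell thinned to 3000 UMIs (filled points) or with all its UMIs (open points); bars are exact Clopper-Pearson 95% binomial intervals, which cover counting error only. Both brain libraries lie below the 3 subcutaneous libraries, and the liver libraries spread from 2.51 to 6.71% after thinning.

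Non-cycling cells of liver and subcutaneous tumours differed in genes of the oxygen and stress responses. In edgeR's quasi-likelihood test on UMI sums per library, with Benjamini-Hochberg adjusted p under 0.05 over 8090 genes, 696 genes differed (8.6%), 262 higher in liver (3.24%) and 434 lower in liver (5.36%). All 34 measured genes of the hypoxia and glycolysis list were lower in liver, with a median log2 change of -1.54, against a median of 0.00 over all genes tested. The list was chosen with such results known, so its count is no independent evidence of direction. The total fell to 334 genes when liver replicate 1 was left out, to 359 for liver replicate 2 and to 373 for subcutaneous replicate 2, while the hypoxia count was 32 to 33 whichever library was dropped. DESeq2 called 392 genes in all and 31 of the 34 on the list. Counts of the 3 site comparisons do not rank the sites, since brain has fewer libraries and members: with equal cell numbers liver against subcutaneous gave 228 genes and brain against subcutaneous 209. Among the other tumour cells, liver against subcutaneous gave the fewest, 359 of 13894 genes (2.58%; 0.878% higher and 1.71% lower in liver), against 2082 for brain against subcutaneous (15%; 9.16% higher and 5.83% lower in brain) and 3095 for brain against liver (22.3%; 13.6% higher and 8.69% lower in brain).

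P4ha2, a collagen prolyl hydroxylase, had the largest fold of the genes lower in liver that passed the test, averaged at least 20 CPM and had no libraries overlapping. It stood at 77.1 and 53.5 CPM in the non-cycling cells of brain, 6.56, 3.10 and 5.35 CPM in liver, and 90.3, 109 and 116 CPM in subcutaneous tumours. The liver values lay far under both other sites, and both brain values lay under all subcutaneous ones. The log2 change of liver against subcutaneous was -4.13 ± 0.30 (SE; edgeR adjusted p = 9.51e-10). Other tumour cells had P4ha2 near its lowest in both brain and liver, at 1.56 to 2.27 CPM, and at 16.7 to 20.6 CPM in subcutaneous tumours.

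Ndrg1, a stress protein induced by low oxygen, stood at 213 and 127 CPM in brain, 47.6, 32.5 and 58.8 CPM in liver and 265, 447 and 402 CPM in subcutaneous tumours. The 3 sites did not overlap, with liver lowest (liver against subcutaneous -2.90 ± 0.25, edgeR adjusted p = 6.69e-07). Slc2a1, the glucose transporter GLUT1, stood at 145 and 90.2, at 24.6, 23.2 and 24.1, and at 91.0, 197 and 147 CPM. Brain and subcutaneous libraries overlapped for it and liver lay below both (-2.45 ± 0.29 against subcutaneous, edgeR adjusted p = 1.63e-05).

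Other members of the oxygen response had brain closer to liver. Bnip3, a mitophagy receptor, stood at 372 and 475 CPM in brain, 352, 170.3 and 353 CPM in liver, and 1238, 1498 and 1153 CPM in subcutaneous tumours. Egln3, an oxygen-sensing prolyl hydroxylase, stood at 36.3 and 43.4, at 36.9, 21.7 and 40.1, and at 166, 235 and 214 CPM. For both genes the subcutaneous libraries lay above all 5 others. Brain and liver overlapped for Egln3, and for Bnip3 the lower brain value lay just above the highest liver value. Vegfa, the angiogenic growth factor, was also highest there, at 52.9 to 97.7 CPM against 8.02 to 13.1 CPM in liver (-2.46 ± 0.31, edgeR adjusted p = 6.62e-06). Gapdh, a glycolytic enzyme with a high level everywhere, fell by 0.52 ± 0.12 on the log2 scale in liver (edgeR adjusted p = 0.00438).

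The amino acid stress list was also lower in liver than in subcutaneous tumours. Of its 29 measured genes, 25 were lower in liver than in subcutaneous non-cycling cells and 0 higher, with a median log2 change of -1.48. Over all genes tested, 5.36% were lower in liver and 3.24% higher. With the limit on cycle genes at 0.03%, 16 of 24 genes of the list were lower. Nupr1, a stress-induced chromatin protein, stood at 222 and 114 CPM in brain, 85.3, 77.4 and 74.9 CPM in liver, and 686, 924 and 998 CPM in subcutaneous tumours. The subcutaneous values lay above every brain and liver value (liver against subcutaneous -3.30 ± 0.20, edgeR adjusted p = 7.23e-10). Trib3, a pseudokinase induced by Atf4 and Ddit3, stood at 113 and 56.8, at 55.8, 52.6 and 88.3, and at 337, 649 and 487 CPM, again without overlap between subcutaneous and the others (-2.85 ± 0.29, edgeR adjusted p = 6.72e-05). Atf4 itself changed less (-1.01 ± 0.17, edgeR adjusted p = 0.000403). Xbp1, the splice-activated factor of the ER stress response, did not pass the test (-0.04 ± 0.16, edgeR adjusted p = 0.931), and a 3' count does not see its splicing.

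**Figure D3:**
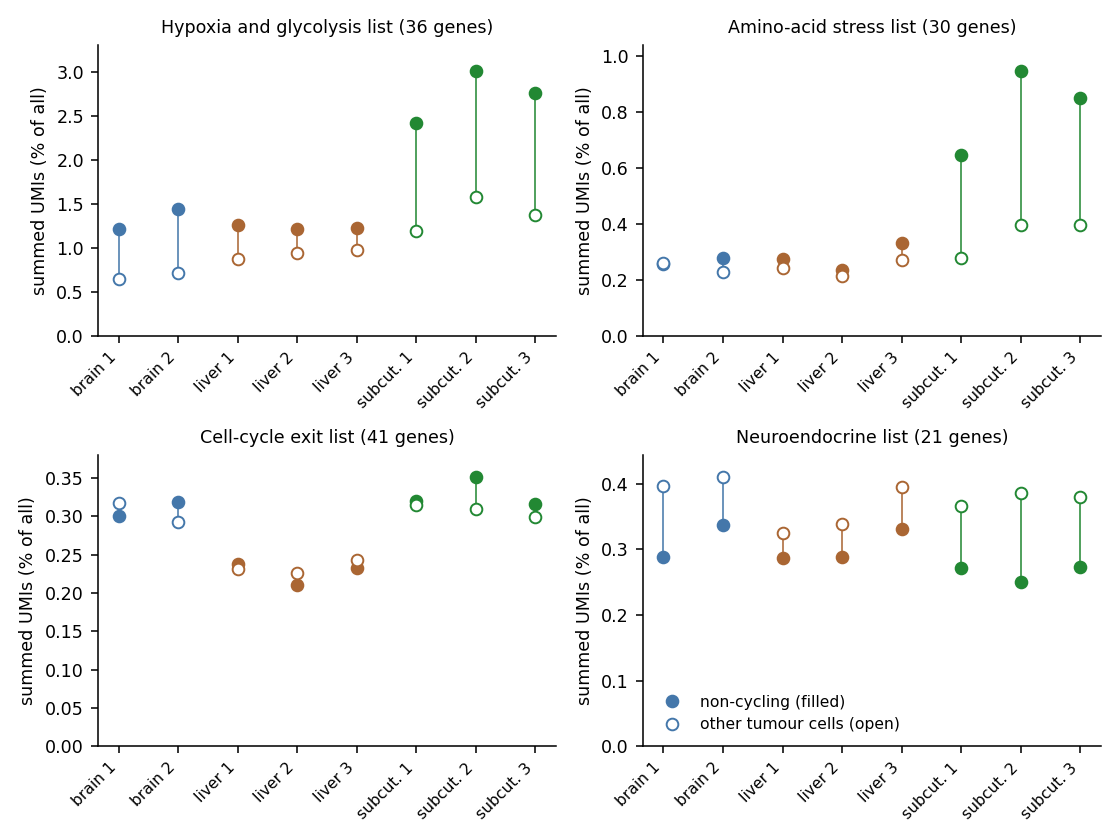
Percent of UMIs (vertical axes) held by the hypoxia and glycolysis, amino acid stress, cell cycle exit and neuroendocrine lists in each library (horizontal axes), for non-cycling cells (filled points) and other tumour cells (open points), coloured by site, with a line joining the pair of each library. In subcutaneous tumours the non-cycling cells hold 2.42 to 3.00% of UMIs on the first list and 0.647 to 0.945% on the second, above all brain and liver libraries; on the neuroendocrine list the filled point is the lower of the pair in 8 of 8 libraries.

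Summed over each list, hypoxia and glycolysis genes held 1.21 and 1.45% of the non-cycling UMIs in brain, 1.26, 1.21 and 1.23% in liver, and 2.42, 3.00 and 2.76% in subcutaneous tumours. Among the other tumour cells they held 0.646 and 0.714, 0.878, 0.941 and 0.971, and 1.19, 1.57 and 1.38%. The non-cycling value was the higher of the pair in each of the 8 libraries. Amino acid stress genes held 0.256 and 0.280, 0.276, 0.235 and 0.334, and 0.647, 0.945 and 0.850% of non-cycling UMIs. The same genes held, in the other tumour cells, 0.261 and 0.227, 0.241, 0.216 and 0.270, and 0.278, 0.398 and 0.398% of UMIs. For this list the pairs lay close together in brain and liver and far apart in each subcutaneous library.

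Single cells were spread differently by site. The median non-cycling cell of brain replicates 1 and 2 held 0.621 and 0.649% hypoxia and glycolysis UMIs, near the 0.553 and 0.597% of the other brain tumour cells, while the 90th percentile of the brain members was 2.11 and 3.46%. Most brain members thus held a level near that of their tumour and a smaller number a far higher one. In subcutaneous tumours the median member itself held 2.42, 3.12 and 2.94%. Across the members of a library, Spearman's rho between the hypoxia and the amino acid stress percent was 0.607, 0.574 and 0.690 in subcutaneous tumours (183, 189 and 143 cells) and 0.176 to 0.468 in the 5 other libraries (42 to 143 cells). Cells of 1 library share its preparation, both percents have the same denominator, and rho of depth with the hypoxia percent ran from -0.07 to 0.412.

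ER chaperones were part of the same site difference, and their promoters are shown because the members that moved together share a word there. The ER stress element was searched, on both strands, as CCAAT, any 9 bases and CCACG (read on the other strand as CGTGG, any 9 bases and ATTGG) in the 250 bases before the start of each gene (RefSeq, GRCm38.p6). It was found in 35 of 27025 genes (0.1295%), and in 13 of the 6442 tested genes that matched the RefSeq table (0.2018%). These 13 were Adcy3, Alg12, Calr, Canx, Creld2, Derl3, Dnajc3, Hnrnpa3, Hsp90b1, Hspa5, Pan2, Pdia6 and Syvn1. Of the 13, 9 were lower in liver than in subcutaneous non-cycling cells and 0 were higher, against 5.36 and 3.24% of all genes tested. The 9 were Alg12, Calr, Canx, Creld2, Derl3, Dnajc3, Hsp90b1, Pdia6 and Syvn1. The median log2 change of the 13 was -1.70. The word was chosen after these genes' values were seen, and a match of letters does not show that a factor binds. Stretches of 67 bases are printed 5′ to 3′ on the gene's strand, with the word in capitals:
Hspa5 (chr2:34772001-34772067, plus strand): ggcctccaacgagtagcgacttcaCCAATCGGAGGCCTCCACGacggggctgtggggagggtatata
Hsp90b1 (chr10:86705614-86705680, minus strand): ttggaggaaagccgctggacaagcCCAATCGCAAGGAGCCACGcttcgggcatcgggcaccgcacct
Calr (chr8:84847051-84847117, minus strand): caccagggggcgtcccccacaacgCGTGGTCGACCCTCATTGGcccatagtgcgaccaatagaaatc
Pdia6 (chr12:17266467-17266533, plus strand): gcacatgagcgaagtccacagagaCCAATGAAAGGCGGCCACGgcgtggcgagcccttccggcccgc
Dnajc3 (chr14:118937803-118937869, plus strand): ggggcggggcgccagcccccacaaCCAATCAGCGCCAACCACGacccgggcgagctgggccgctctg
Derl3 (chr10:75893218-75893284, plus strand): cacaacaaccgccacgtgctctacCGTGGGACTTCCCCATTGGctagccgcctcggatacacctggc
Creld2 (chr15:88819496-88819562, plus strand): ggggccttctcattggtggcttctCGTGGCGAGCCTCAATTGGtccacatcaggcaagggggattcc
Syvn1 (chr19:6046508-6046574, plus strand): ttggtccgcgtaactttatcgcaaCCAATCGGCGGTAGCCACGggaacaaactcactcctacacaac

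The word lies 65 to 47 bases before the start of Hspa5, 98 to 80 before that of Pdia6 and 126 to 108 before that of Creld2. Hsp90b1 holds it a second time, 107 to 89 bases before the start, in the other orientation. Creld2 and Alg12 lie head to head and share the printed stretch on opposite strands, and both were lower in liver. The 3 other genes with the word outside the ER response, Adcy3, Hnrnpa3 and Pan2, did not pass the test in any site comparison.

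Derl3, a channel component that passes misfolded protein out of the ER, stood at 4.53 and 10.0 CPM in the non-cycling cells of brain, 10.7, 10.8 and 21.4 CPM in liver, and 109, 131 and 83.5 CPM in subcutaneous tumours. The subcutaneous libraries lay far above the rest (liver against subcutaneous -2.95 ± 0.27, edgeR adjusted p = 4.59e-08). Derl3 in the other tumour cells stood at 15.2 to 25.9 CPM with the 3 sites side by side (liver against subcutaneous 0.09 ± 0.14, edgeR adjusted p = 0.819). Creld2, a secreted ER stress protein, stood at 13.6 and 60.2, at 62.3, 37.2 and 64.2, and at 313, 462 and 338 CPM (-2.63 ± 0.23, edgeR adjusted p = 3.01e-07). Sdf2l1, a cochaperone of Hspa5 in which the word was not found, stood at 36.3 and 50.1, at 76.3, 71.2 and 72.2, and at 509, 614 and 411 CPM. No brain or liver library reached the lowest subcutaneous value for either gene (Sdf2l1 -2.67 ± 0.17, edgeR adjusted p = 2.83e-10).

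Hsp90b1, the ER form of Hsp90, stood at 195 and 274 CPM in brain, 199, 238 and 283 CPM in liver and 995, 1220.3 and 924 CPM in subcutaneous tumours (liver against subcutaneous -2.02 ± 0.16, edgeR adjusted p = 2.54e-09). Pdia6, a disulphide isomerase, changed by -1.70 ± 0.17 (edgeR adjusted p = 2.51e-07), Dnajc3, an Hspa5 cochaperone, by -2.18 ± 0.23 (4.58e-07), and Calr, the lectin chaperone calreticulin, by -1.22 ± 0.14 (2.13e-06). Hspa5, the main ER chaperone, stood at 349 and 364, at 188, 173 and 513, and at 998, 1951 and 1409.8 CPM. The subcutaneous libraries lay above all others for it too, but the spread within liver was wide and the difference missed the threshold (-2.28 ± 0.49, edgeR adjusted p = 0.0534).

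**Figure D4:**
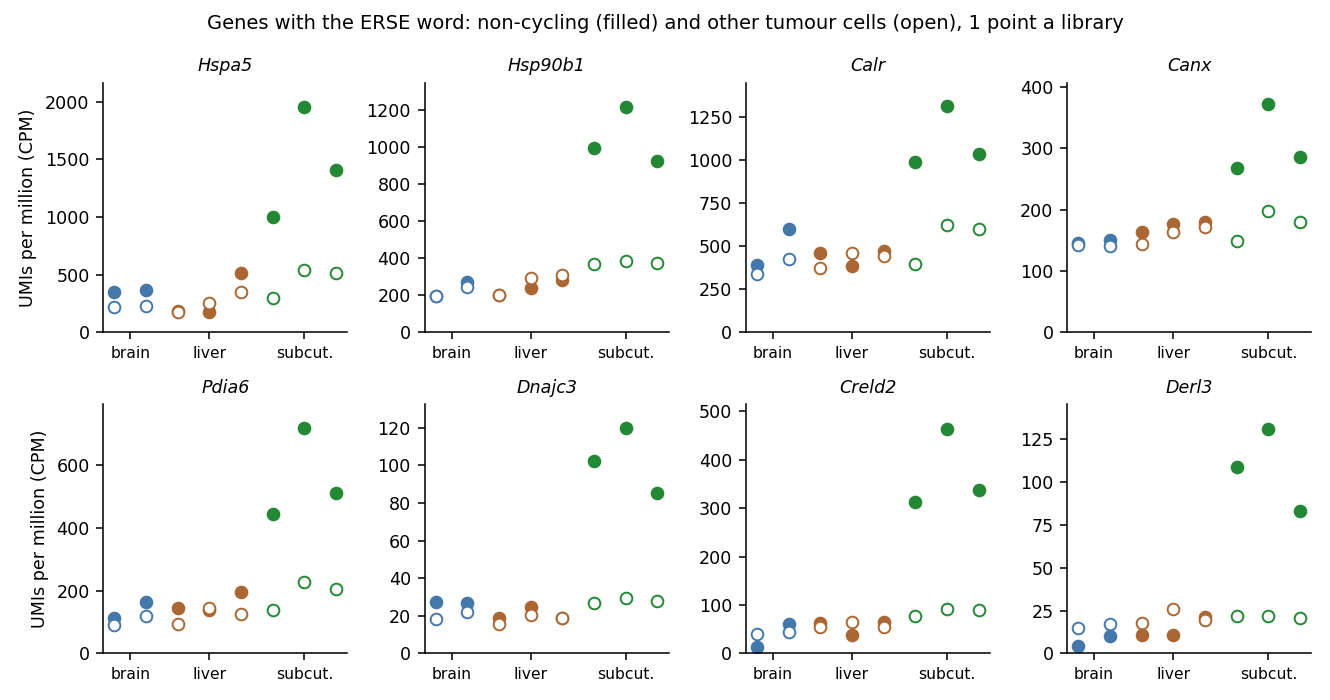
CPM (vertical axes, linear from 0, each gene on its own scale) of 8 genes with the ER stress element word, 1 point a library along the horizontal axes, in non-cycling cells (filled points) and other tumour cells (open points), coloured by site. In Derl3 the filled subcutaneous points lie at 83.5 to 131 CPM, above every open point and every brain and liver point.

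A shorter word for Atf4, TGATGCAA or TTGCATCA on the other strand, was found in 248 of 27025 promoters (0.918%) and in 6 of the 25 matched genes of the amino acid stress list (24%). Of the 43 tested genes that hold it, 13 were lower and 2 higher in liver than in subcutaneous non-cycling cells (5.36 and 3.24% of all genes tested). Nupr1 and Atf3 carry it at the same distance, 110 to 103 bases before the start:
Nupr1 (chr7:126625549-126625604, minus strand): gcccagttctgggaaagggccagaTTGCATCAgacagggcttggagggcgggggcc
Atf3 (chr1:191183412-191183467, minus strand): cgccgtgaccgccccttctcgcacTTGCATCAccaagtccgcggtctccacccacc
The core of the hypoxia response element, ACGTG or CACGT on the other strand, is short and common. It was found in 18.5% of all promoters in the table, 27.0% of the tested genes, 40.6% of the genes lower in liver than in subcutaneous tumours, and 18 of 31 matched genes of the hypoxia list (58.1%). S phase genes outside the rule held it in 9 of 22 (40.9%) and mitosis genes in 8 of 30 (26.7%). Of the 1740 tested genes with the core, 145 were lower and 36 higher in liver than in subcutaneous members. Their median log2 change was -0.04, against 0.00 over all genes tested.

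Whether these site differences differed from those of the other tumour cells of the same libraries was tested as an interaction, the log2 ratio of non-cycling to other cells in liver minus that in subcutaneous tumours. In edgeR's quasi-likelihood test over 13055 genes, 527 passed (4.04%), 224 above 0 (1.72%) and 303 below (2.32%). Derl3 (-3.02 ± 0.25, edgeR adjusted p = 8.62e-30), Sdf2l1 (-2.19 ± 0.14, 8.28e-53) and Creld2 (-2.17 ± 0.15, 3.69e-42) were 3 of the 4 farthest below 0 among genes that passed with a mean of at least 20 CPM. The fourth was Sparc, a matrix protein (-2.31 ± 0.64, edgeR adjusted p = 0.0129). It stood at 0.40 and did not pass once cells rich in host transcripts were left out of both states (10 members and 125 other tumour cells). Of the hypoxia list, 21 of 36 genes were below 0 and 0 above, and of the amino acid stress list 20 of 30 and 0. Hspa5 passed here (-1.62 ± 0.11, edgeR adjusted p = 4.01e-30), as did 9 of 14 tested genes with the ER stress element word, all below 0.

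The size of that count depends on how the spread between libraries is estimated. In the edgeR fit, 91.0% of genes were given the trended spread with no weight on their own, and limma on within-library log2 ratios, called 39 of 5609 genes. Sdf2l1 (edgeR -2.19, limma -2.11 with adjusted p = 0.00598) and Derl3 (limma -2.53, adjusted p = 0.015) passed in both, and Creld2 did not pass in limma (-2.14, adjusted p = 0.0697). The limma calls took in 6 of 30 hypoxia genes and 4 of 24 amino acid stress genes, all below 0. Leaving out liver replicate 1 took the edgeR count to 291, and leaving out subcutaneous replicate 2 took it to 299.

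**Figure D5:**
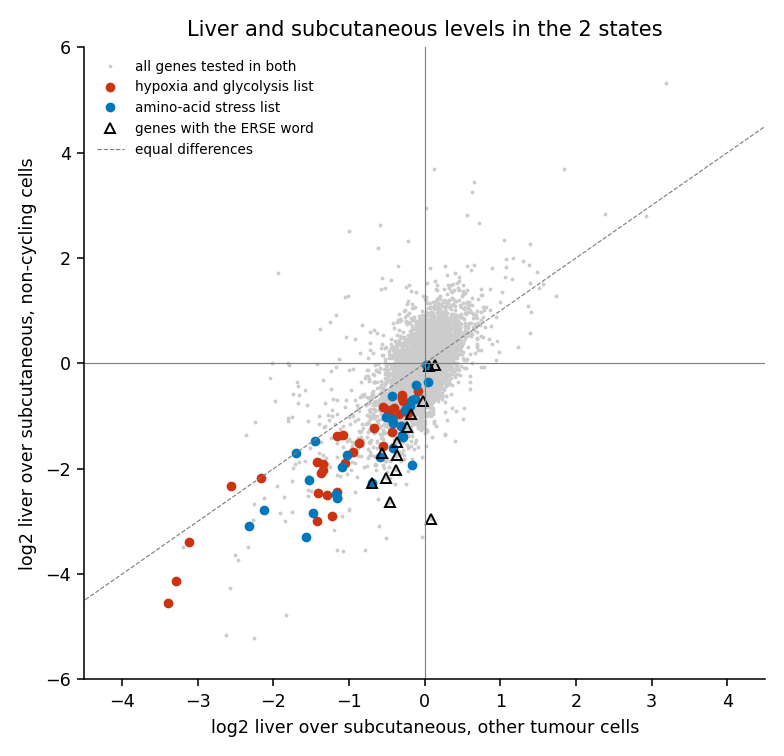
Log2 change of liver against subcutaneous tumours in other tumour cells (horizontal axis) and in non-cycling cells (vertical axis) for 8088 genes, with 2 genes outside the axes; red points are the hypoxia and glycolysis list, blue points the amino acid stress list, open triangles genes with the ER stress element word and grey points all genes tested in both. Most of the marked genes lie below the dashed line of equal differences, where the fall in liver is larger in non-cycling cells.

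Genes higher in liver than in subcutaneous non-cycling cells were of other kinds. Hspb1, the small heat shock protein Hsp27, stood at 40.8 and 63.5 CPM in brain, 50.9, 60.4 and 168 CPM in liver, and 3.73, 1.48 and 0.928 CPM in subcutaneous tumours. All 5 brain and liver libraries lay above the subcutaneous ones (liver against subcutaneous 5.32 ± 0.61, edgeR adjusted p = 0.000238). Hspb1 in the other tumour cells stood at 1.14 and 2.56, at 13.4, 15.4 and 9.77, and at 1.20, 1.72 and 1.64 CPM, so brain was high for it in the non-cycling cells and low in the others (interaction of brain against subcutaneous 4.32 ± 0.65, edgeR adjusted p = 6.81e-08; limma adjusted p = 0.0447). Kcnh3, a voltage-gated potassium channel, was higher in liver by 2.26 ± 0.26 (edgeR adjusted p = 6.42e-06) and Ifitm3, an interferon-inducible membrane protein, by 1.94 ± 0.20 (2.18e-07). Sfrp5, a secreted Wnt antagonist, Calb1, a calcium buffer, and Tgif2, a transcriptional repressor, were the others with the largest change and no overlap between libraries. Sfrp5 did not pass without liver replicate 1 or subcutaneous replicate 1, and Calb1 did not pass after thinning or with equal cell numbers. Kcnh3, Ifitm3 and Tgif2 also did not pass after thinning. The liver against subcutaneous difference of Hspb1 did not pass with the limit on cycle genes at 0.03%.

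Brain against subcutaneous non-cycling cells gave 372 of 8090 genes (4.6%), 161 higher in brain (1.99%) and 211 lower (2.61%), by the same edgeR test. Leaving out brain replicate 1 or 2 took the count to 101 or 245, and leaving out subcutaneous replicate 1, 2 or 3 took it to 630, 172 or 233. Of the amino acid stress list, 18 of 29 genes were lower in brain and 0 higher (median -1.50), and of the hypoxia list 20 of 34 and 0 (median -0.95). These counts fell to 11 and 9 with brain replicate 1 dropped, to 11 and 13 with brain replicate 2 dropped, to 8 and 12 after thinning, and to 8 of 24 and 0 of 29 with the limit on cycle genes at 0.03%. Of the 13 tested genes with the ER stress element word, 7 were lower in brain and 0 higher.

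Sdf2l1 showed the firmest fall in brain (-3.42 ± 0.26, edgeR adjusted p = 5.08e-09). Derl3 rested on 4 UMIs summed over both brain libraries against 413 in subcutaneous tumours, a ratio of 14.2 with a counting interval of 5.52 to 52.5. Sesn2, a stress-induced inhibitor of growth signalling, had 3 UMIs against 272 (ratio 12.5, interval 4.23 to 61.0) and Fgf21, a secreted starvation hormone, 4 against 294 (10.1, interval 3.92 to 37.4). Elmo2, an activator of Rac signalling, had 2 against 180 (12.4, interval 3.38 to 103.2). These intervals are at 95% and cover counting error only.

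In the interaction of brain against subcutaneous tumours, 171 of 13055 genes passed (1.31%), 68 above 0 (0.521%) and 103 below (0.789%), and the count was 74 without brain replicate 1 and 69 of 5609 by limma. Of the lists, 14 of 30 amino acid stress genes were below 0 and 0 above, and of the 36 hypoxia genes 0 were below and 3 above. Atf4 (-0.68 ± 0.15, edgeR adjusted p = 0.00191) and Ddit3 (-1.39 ± 0.35, 0.00882) were among those below. Aldoa was above 0 (0.92 ± 0.11, edgeR adjusted p = 1.67e-14), since it was low in the other brain tumour cells at 264 to 278 CPM. P4ha2 was also above (2.52 ± 0.39, 6.81e-08). For P4ha2 and Aldoa limma did not pass (adjusted p = 0.071 and 0.069).

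Brain against liver gave 120 genes within the non-cycling cells (1.48%), 83 higher in brain (1.03%) and 37 lower (0.457%). It was 35 with brain replicate 1 left out, 47 and 55 with liver replicates 1 and 2 left out in turn, and 221 with subcutaneous replicate 1 left out. Of the hypoxia list 8 of 34 genes were higher in brain and 0 lower (median 0.47) in the summed UMIs, a count that was 1 with brain replicate 1 dropped, 3 after thinning and 4 with liver replicate 1 dropped or without cells of 2 or more macrophage UMIs. The median member went the other way, with 0.621 and 0.649% hypoxia and glycolysis UMIs in brain against 1.04 to 1.07% in the 3 liver libraries, so the summed levels in brain rest on a smaller number of members with a high level. P4ha2 (3.54 ± 0.42, edgeR adjusted p = 2.47e-05), Slc2a1 (2.25 ± 0.39, 0.00544), Ndrg1 (1.88 ± 0.33, 0.00713) and Ero1l, the ER oxidase (1.73 ± 0.40, 0.0232), were among the 8. With the limit on cycle genes at 0.03%, P4ha2 did not pass (edgeR adjusted p = 0.173), nor did its interaction of brain against liver (0.631). The amino acid stress list had 1 gene higher and 1 lower of 29. By comparison, among the other tumour cells 15 of 36 hypoxia genes were lower in brain than in liver and 6 higher. Of all genes tested in those cells, 8.69% were lower in brain and 13.6% higher. The interaction itself had 14 of 36 hypoxia genes above 0 and 0 below, among 69 of 13055 genes that passed (0.529%; 48 above 0, 0.368%, and 21 below, 0.161%), and limma called 2 of 30. The whole count was 44 without liver replicate 2, and 37 without the cells of both states rich in host transcripts (10 members and 125 other tumour cells).

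Outside the lists, Ckb, the brain form of creatine kinase, stood at 81.6 and 70.2 CPM in brain, 13.9, 7.74 and 18.7 CPM in liver and 23.9, 18.5 and 17.6 CPM in subcutaneous tumours (brain against liver 2.52 ± 0.39, edgeR adjusted p = 0.000477). Elf3, an epithelial transcription factor, stood at 86.1 and 93.6, at 18.9, 17.0 and 10.7, and at 46.3, 80.6 and 67.7 CPM. Prph, the intermediate filament peripherin, stood at 290.2 and 391, at 59.1, 55.7 and 96.3, and at 244, 175 and 114 CPM. Brain was above liver without overlap in each of these. Cited4, a coactivator of transcription, stood at 453 and 565 CPM in brain, 151, 161 and 160.5 CPM in liver and 93.3, 68.0 and 54.7 CPM in subcutaneous tumours, and its 3 sites did not overlap (brain against subcutaneous 2.93 ± 0.20, edgeR adjusted p = 5.44e-10). Lower in brain than in liver were Kcnh3, Calb1, Ass1, which makes argininosuccinate, and Sema3c and Sox6, which rested on 3 UMIs each in brain, with ratios of 9.21 (interval 3.08 to 45.3) and 7.12 (2.36 to 35.2). Of these, Calb1, Ass1 and Sox6 did not pass after thinning or with either brain library or liver replicate 1 left out, Ass1 and Sox6 did not pass in DESeq2, and Sema3c did not pass without brain replicate 2 or after thinning. Kcnh3 passed with every library left out in turn and in DESeq2, but not after thinning or with the limit on cycle genes at 0.03%. Prph did not pass with either brain library left out. Prph and Ckb did not pass after thinning or with that limit on cycle genes, and Elf3 and Sema3c did not pass with that limit.

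Some genes high in brain are also transcripts of host glia or macrophages. Mbp, myelin basic protein, stood at 177 and 217 CPM in non-cycling cells of brain, 35.6 to 48.4 CPM in liver and 36.2 to 38.1 CPM in subcutaneous tumours (brain against subcutaneous 2.53 ± 0.22, edgeR adjusted p = 5.03e-08), and at 181 and 119.8 CPM in the other tumour cells of brain. The glial list of 12 genes held 0.0236 and 0.0328% of non-cycling UMIs in brain and 0.00418 to 0.00591% elsewhere, and 2 of its genes were abundant enough to be tested; the part of glial RNA in the Mbp result was not tested. Apoe, a lipid carrier of macrophages and glia, stood at 852 and 221 CPM in brain, and at 155 and 54.1 CPM once the members rich in host transcripts were left out, when the difference from subcutaneous no longer passed (3.47, edgeR adjusted p = 0.11). Timp2, a protease inhibitor, fell from 131 and 26.7 to 25 and 27.1 CPM in brain, and Serinc3, a membrane protein, from 163 and 46.8 to 45.1 and 47.3 CPM, and neither passed without those cells. P4ha2 was as high in brain without them, at 85.1 and 54.1 CPM.

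The interferon list, which is high in brain in the other tumour cells, could hardly be read in the members. Of its 30 genes 7 were abundant enough in non-cycling cells to be tested, 2 were higher in brain than in subcutaneous tumours and 1 higher in brain than in liver. The list held 0.183 and 0.0481% of the non-cycling UMIs in brain and 0.0212 to 0.0410% elsewhere, and macrophage transcripts held 0.531% of the UMIs in brain replicate 1, where the first of these values stands. Their part in it was not tested.

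Of 35 measured genes of cell cycle exit, 9 were lower in liver than in subcutaneous members and 0 higher (5.36% of all genes were lower), and 4 were higher in brain than in liver and 0 lower (1.03% of all genes were higher). Cdkn1a was among the 9, at 63.5 and 76.9 CPM in brain, 61.5, 43.3 and 126 CPM in liver and 177, 156 and 147 CPM in subcutaneous tumours, without overlap of the subcutaneous libraries with the rest (liver against subcutaneous -1.05 ± 0.24, edgeR adjusted p = 0.00682). The other tumour cells showed a like change (-0.89 ± 0.15, edgeR adjusted p = 0.0223), and the difference between the 2 did not pass (interaction -0.19 ± 0.16, edgeR adjusted p = 0.685). Of 20 measured neuroendocrine genes, 5 were higher and 1 lower in brain than in subcutaneous members (1.99 and 2.61% of all genes), and 4 were higher and 2 lower in liver than in subcutaneous members (3.24 and 5.36% of all genes). Insm1, a neuroendocrine transcription factor, stood at 204 and 214, at 153, 147 and 120.4, and at 127, 81.4 and 103 CPM, and Chga at 444 and 354, at 353, 336 and 489, and at 272, 269 and 287 CPM. Both were among the 5 higher in brain than in subcutaneous members (Insm1 1.13 ± 0.22, edgeR adjusted p = 0.00275; Chga 0.66 ± 0.18, 0.0362). In the interaction of liver against subcutaneous tumours, 7 of 21 neuroendocrine genes were above 0 and 2 below in the edgeR test (1.72 and 2.32% of all genes).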

How the data were processed

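The data are UMI counts per gene and cell from 10x 3' libraries. The authors deposited filtered count matrices of 22056 genes; the submitters' processing notes name Cell Ranger, STAR and mm10, and the matrix header, per the file headers, gives software version 3.0.0. Of the gene IDs, 21952 matched GENCODE. Host cells and doublets were not removed beyond the rule, and no doublet caller was run. UMIs of the non-cycling and of the other tumour cells were summed per library. Sites were compared with edgeR's quasi-likelihood test (4.0.16, R 4.3.3; TMM, filterByExpr, robust fit of all 8 libraries, 5 residual degrees of freedom), adjusted by Benjamini-Hochberg. The interaction fit held 16 sums with the library as a block. The script was tested on simulated data. Alternatives used DESeq2 1.42.0 and limma 3.58.1. CPM ratios between states used a pseudocount of 1. The largest TMM factor of any of the 16 sums was 0.18 on the log2 scale, in absolute value.

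The members, gene lists and promoter words were chosen with earlier results of these data known. Named genes are list members with the largest changes, the 6 largest non-overlapping changes per direction in each site comparison (mean of at least 20 CPM), 4 per direction in each interaction and 10 per direction between states. Genes named beyond this rule, among them those with a promoter word, were chosen after their values were seen.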

Additional observations from a re-analysis of the deposited data

Results flagged for a closer look

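The genes below passed the test of the interaction, in which the site difference in non-cycling cells differs from that in the other tumour cells; values are log2, from edgeR's quasi-likelihood test. For genes of the ER stress response, liver against subcutaneous gave -3.02 for Derl3, -2.19 for Sdf2l1 and -2.17 for Creld2. Brain against subcutaneous gave -3.40 for Derl3. P4ha2 gave 3.39 for brain against liver, and did not pass with the limit on cycle genes at 0.03%. Hspb1 gave 4.32 for brain and 2.17 for liver, both against subcutaneous. The liver value of Hspb1 did not pass after thinning or with the limit on cycle genes at 0.03%. Nor did it pass with liver replicate 3, subcutaneous replicate 2 or subcutaneous replicate 3 left out in turn. Elmo2 gave -2.64 for brain against subcutaneous, on 2 UMIs in the brain members.

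The remaining genes are mostly typical of host cells. Lyz2 gave 10.43 and C1qc 10.09 (both macrophage genes) for brain against liver, and 3.51 and 9.28 for brain against subcutaneous; their values where a site has 0 UMIs depend on the prior count. The MHC class II genes H2-Aa, Cd74 and H2-Ab1 gave -4.95, -4.78 and -4.54 for brain against liver, H2-Aa and Cd74 gave -2.83 and -2.71 for brain against subcutaneous, and H2-Ab1 gave 2.38 for liver against subcutaneous. Trf, an iron carrier made by hepatocytes and glia, gave 3.05 for brain and 3.60 for liver against subcutaneous, and Hbb-bt, a globin, gave 2.73 for liver against subcutaneous. Sparc, a matrix protein, gave 2.88 for brain against liver and -2.31 for liver against subcutaneous. S100a6, a calcium-binding protein, gave -2.45 for brain against liver. In the refit without cells rich in host transcripts, 10 members and 125 other tumour cells were dropped. There Lyz2, C1qc, H2-Aa, Cd74, H2-Ab1, Hbb-bt, Sparc, S100a6 and Elmo2 no longer passed in any of these comparisons, nor did Trf for liver. Limma on within-library ratios passed P4ha2, both Derl3 values, Sdf2l1, Elmo2 and Hspb1 in brain, and none of the others.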

How the results depend on the processing

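Brain against liver gave 362 genes with no gene filter, 33 with members under 0.03% cycle UMIs and 64 after thinning, and 35 to 221 when a library was left out. Brain against subcutaneous gave 670 with no filter, 83 under 0.03%, 145 after thinning and 209 with equal cell numbers, and 101 to 630 without a library. Liver against subcutaneous gave 392 with DESeq2, 216 under 0.03%, 295 after thinning and 228 with equal cell numbers, and 334 to 963 without a library. The interactions gave, for brain against liver, 43 under 0.03%, 18 without cells of 2 or more macrophage UMIs, 37 without cells over 0.3% host UMIs, 4 by limma and 44 to 103 without a library. For brain against subcutaneous they gave 60 under 0.03%, 57 after thinning, 69 by limma and 74 to 178, and for liver against subcutaneous 126, 188, 39 and 291 to 619. Fewer cells enter under 0.03% and with equal numbers, while thinning leaves fewer UMIs per cell and another set of members. Between states, TMM scaling gave 27 genes higher, thinning 4 and the 0.03% limit 10, and thinning gave 155 lower.

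With the replicate block the counts were 133, 359 and 728 for the site comparisons; replicate numbers do not pair the libraries (correlations of same-numbered liver and subcutaneous libraries 0.104, -0.175 and 0.128). The brain share minus the mean of the other sites was -2.19 points without liver replicate 1 (exact permutation p over the 3 sites = 0.0476) and -3.27 to -2.19 over all libraries left out. Of the named genes' alternatives, 829 kept direction and side of the threshold, 185 lost the threshold and 16 reversed, all of them MHC class II genes, Hbb-bt or Sparc, and the cause was not tested. For brain against liver: Cd74 7.10 and H2-Ab1 0.14 without cells of 2 or more macrophage UMIs, Cd74 7.76 and H2-Ab1 0.11 without host-rich cells, and, with a library left out, H2-Aa -7.44 to 4.38, Cd74 -6.69 to 6.0 and H2-Ab1 -4.84 to 5.29. For brain against subcutaneous: H2-Aa 0.49 thinned, 0.22 without host-rich cells and -5.33 to 3.63 with a library left out, Cd74 2.25 thinned. For liver against subcutaneous: Hbb-bt -13.29 under 0.03% and -2.78 without host-rich cells, H2-Ab1 -0.024 without host-rich cells and -7.47 to 7.22 with a library left out, Sparc 0.40 without host-rich cells.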
